A study of Mus musculus with 4 samples.

Results

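The genes described here are p53, its regulators Mdm2 and Mdm4, and direct p53 targets that act in cell cycle arrest, cell death, DNA repair and stress metabolism. The 32 members were taken by gene name from a list, drawn up with earlier results of these data known, out of 37074 gene names on the arrays. All 32 had at least 1 probe, 66 probes in all, and all 32 carried a P flag, a present call that asks for a clean and unsaturated spot well above its background, on at least 1 array. Over the whole array, 20738 gene names carried such a flag.

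RNA of heart tissue from female C57BL/6J mice, 6 weeks old, was hybridised to single-colour Agilent mouse arrays, 1 array for each of 4 conditions. Mice received 400 mg/kg of cyclophosphamide (CY), the same dose of CY preceded by 200 mg/kg of N-acetyl cysteine (NAC + CY), 5 mg/kg of acrolein, or normal saline (NS) as the control. Agents were injected into the peritoneum once a day on 2 days, and the tissue was taken 3 h after the second dose. Age and collection time are those of the labels, and parts of the article that describes the experiment give another age and a later time, so that the interval behind every ratio rests on the labels. CY is a DNA-alkylating prodrug, acrolein is one of the breakdown products of CY, and NAC is a thiol that supplies cysteine for glutathione. The labels name no genetic change, the RNA is that of whole heart tissue and not of isolated cardiomyocytes, and how many hearts went into each RNA is not given in the sources used here.

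With 1 array per condition, no difference below has a replicate check, and none carries a p-value. The error printed after a log2 ratio is that of the scanner software's error model for the spots compared, and it leaves out differences between animals. Within an array, the SD between repeated spots of a probe was 0.0573 to 0.0783 on the log2 scale.

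The protein p53 is a transcription factor that is kept scarce by the ubiquitin ligase Mdm2, itself a p53 target. DNA damage activates kinases that release p53 from Mdm2, mostly by changing the protein and not its mRNA. Active p53 then binds response elements made of a pair of half-sites and raises the transcription of genes that halt the cell cycle, repair DNA or start apoptosis. Cells of the adult heart muscle rarely divide, so that arrest genes there act in a tissue with little proliferation.

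The hearts held the muscle RNA their label implies. All 7 cardiomyocyte markers, among them the myosin heavy chain Myh6 and the troponins Tnnt2 and Tnni3, were well above background on every array. Their summed signal was 1.09e+06 on the CY array, 1.14e+06 on NAC + CY, 1.3e+06 on acrolein and 1.3e+06 on NS.

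The promoters of the members were searched for the p53 half-site, the 10-letter consensus whose core is CNNG, the middle letters being A or T, with purines before it and pyrimidines after it. The consensus is its own reverse complement, so that a search of 1 strand covers both. Windows ran from 250 bases before to 50 bases after each RefSeq start on GRCm38.p6, and 24 of 32 members had at least 1, with 34 windows in all. A half-site without any departure stood in 12 of 34 windows of the members (35.3%), against 8.36% of all 32851 windows. Strict half-sites in a pair with a spacer of up to 13 bases stood in 1 window of the members, that of Cdkn1a, and in 24 of all 32851. Such a match is a description of the letters and not a binding site.

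A pair of half-sites side by side, with both cores intact and up to 2 of the other letters off, stood in 3 of 34 windows of the members and in 0.158% of all windows. This looser form was chosen after the strict matches had been seen. The 3 matches are shown because their half-sites adjoin with no spacer, and capitals mark the 20 letters of the pair.
Cdkn1a, chr17:29090928-29090947 (+), -51 to -32 from the upstream start: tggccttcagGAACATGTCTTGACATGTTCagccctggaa
Zfp365, chr10:67912706-67912725 (-), -63 to -44 from the start: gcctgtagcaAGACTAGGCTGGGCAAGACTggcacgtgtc
Rps27l, chr9:66946296-66946315 (+), -117 to -98 from the start: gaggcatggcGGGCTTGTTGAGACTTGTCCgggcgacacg
The pair of Cdkn1a departs from the consensus at 1 letter, that of Rps27l at 1 and that of Zfp365 at 2. Cdkn1a and Zfp365 rose after CY, as described below, and Rps27l was not called. The strict pair of Cdkn1a is shown as well, with each half-site in capitals, since it is the strict pair found among the members, and its second half-site is the first of the adjoining pair.
Cdkn1a strict pair, chr17:29090906-29090937 (+), -73 to -42 from the upstream start: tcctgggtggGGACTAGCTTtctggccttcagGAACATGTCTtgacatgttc

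Mdm2 and Bax are shown next because each holds a single strict half-site, again in capitals, and they differ in the CY comparison.
Mdm2, chr10:117710935-117710944 (-), -186 to -177 from the start: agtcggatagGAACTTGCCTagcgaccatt
Bax, chr7:45467090-45467099 (-), -201 to -192 from the start: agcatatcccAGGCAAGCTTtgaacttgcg
Bax rose after CY and Mdm2 was not called. Among windows of members called higher after CY, 2 of 14 held a strict half-site, against 10 of 20 windows of the members not called. A gene can have overlapping windows, and the same Aen half-site filled 2 of those 10. The counts are thus of windows and not of genes, and do not compare called with uncalled members.

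The first comparison asked which of these genes differed in CY hearts. A gene was called higher when its Z-score reached 2 and its ratio 1.5, and lower when they reached -2 and 0.66 or less. The Z-score is the distance of a log2 ratio from the mean of the 200 probes nearest in signal, in units of their SD. By that rule 11 of 32 members were higher after CY (34.4%) and 0 were lower, whereas 3.38% of all 19721 genes tested were higher and 2.81% lower. The higher members were Cdkn1a, Psrc1, Gdf15, Zfp365, Pmaip1, Bbc3, Bax, Trp53inp1, Phlda3, Fas and Eda2r.

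The median log2 ratio of the 32 members was 0.49, with quartiles of 0.15 and 1.51, and that of all genes tested was -0.02. A log2 ratio above 0 was found for 26 of 32 members and for 48.3% of all genes. By the ratio alone, 14 members passed 1.5-fold higher and 1 passed the lower bound, where 11.7% of all genes were higher and 10.7% lower. The members added by the ratio alone were Mdm2, Polk and Tnfrsf10b on the higher side and Gadd45a on the lower side.

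After NAC + CY, 10 of 32 members were higher than on NS and 0 were lower, against 2.68% and 2.59% of all 19808 genes tested. Their median log2 ratio was 0.56, and that of all genes was -0.01. By the ratio alone the counts were 15 higher and 1 lower, with 9.61% and 9.67% of all genes. CY and NAC + CY were set against the same NS array, so that an error of that array enters both comparisons.

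After acrolein, 1 of 30 members tested was higher and 0 were lower, against 1.08% and 1.29% of all 19700 genes tested. The ratio alone gave the same counts of 1 and 0, with 3.97% and 2.87% of all genes. Their median log2 ratio was 0.00, with a lowest value of -0.26 and a highest of 0.59. Pmaip1 and Psrc1 were not tested in this comparison, since neither was well above background on either array.

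**Figure D1:**
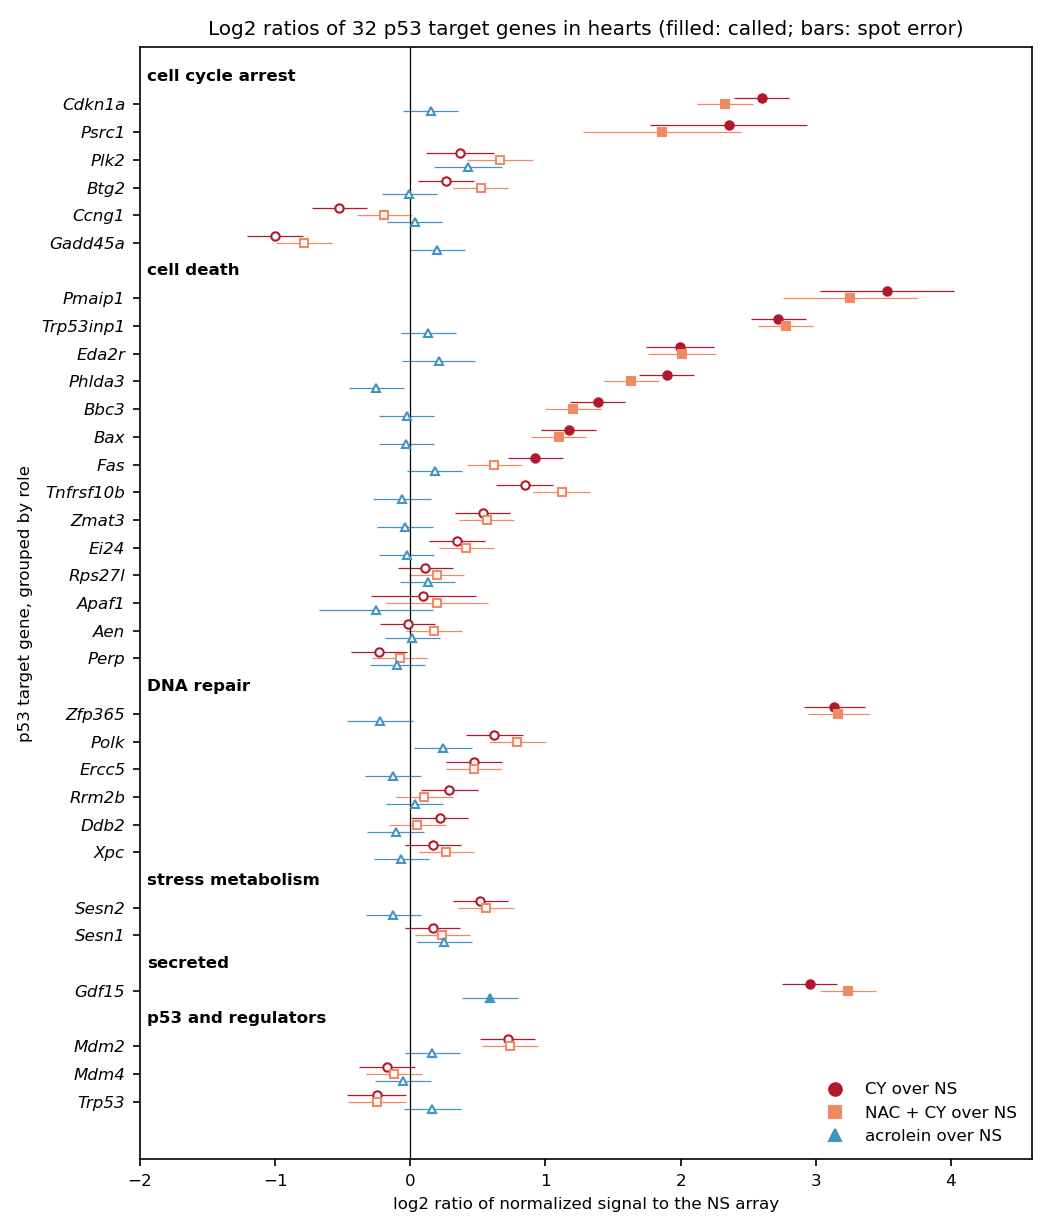
Log2 ratio of each of the 32 genes to the NS array (x axis) by role (y axis), with circles for CY, squares for NAC + CY, triangles for acrolein, filled symbols for called genes and bars for the error of the spots. CY and NAC + CY symbols lie close together for most genes, up to 3.53 for Pmaip1, while the acrolein symbols lie between -0.26 and 0.59.

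Among the 6 genes of cell cycle arrest, Cdkn1a and Psrc1 were higher after CY and after NAC + CY. Of all genes, 3.38% and 2.68% were higher in these comparisons. Cdkn1a encodes p21, an inhibitor of cyclin-dependent kinases. Its probe (chr17:29237377-29237436, + strand, mm9) had a signal of 5909.9 on the CY array, 4901 on NAC + CY, 1083 on acrolein and 976 on NS. The CY and NAC + CY arrays stood apart from the other pair, with log2 ratios to NS of 2.60 ± 0.20 after CY (6.06-fold) and 2.33 ± 0.20 after NAC + CY (5.02-fold). The acrolein value was 0.15 ± 0.20.

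A second Cdkn1a probe, for another transcript variant, gave signals of 83.7 on CY, 77.0 on NAC + CY, 19.2 on acrolein and 19.6 on NS. It was called higher too, at 2.09 after CY and 1.97 after NAC + CY. Another Cdkn1a probe was not well above background on any array.

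Psrc1 encodes a microtubule-binding protein of the mitotic spindle. Its signal was 51.8 on CY and 36.9 on NAC + CY, and its signals of 9.64 on acrolein and 10.1 on NS were not well above background. Against the lowest signal that counts as well above background, Psrc1 was at least 3.15-fold higher after CY and at least 2.24-fold higher after NAC + CY. Its Z-score after NAC + CY was 2.02, just past the threshold. These bounds rest on the scanner's background subtraction, and with normexp correction the log2 ratio was 0.64 after CY, still called, and 0.42 after NAC + CY without a call. That correction was run with an offset of 50 added to each signal, which makes the ratios of dim probes smaller.

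The other 4 arrest genes were not called in any comparison. Gadd45a, a stress-inducible gene of growth arrest, had signals of 219.8 on CY, 255 on NAC + CY, 505 on acrolein and 439.7 on NS. Its log2 ratio was -1.0 ± 0.21 after CY with a Z-score of -1.79, and -0.78 ± 0.21 after NAC + CY, so that both CY-treated arrays were the low ones. Ccng1, which encodes cyclin G1, had 8025 on CY, 10122 on NAC + CY, 11814 on acrolein and 11557 on NS. The antiproliferative gene Btg2 was at 0.26 after CY and 0.52 after NAC + CY, and the polo-like kinase gene Plk2 at 0.37 and 0.67.

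Among the 14 genes of cell death, 7 were higher after CY and 6 after NAC + CY, against 3.38% and 2.68% of all genes. Groups of this size are too small to set the roles against each other. The called genes covered the mitochondrial route (Pmaip1, Bbc3 and Bax), receptors of the tumour necrosis factor family (Fas and Eda2r), the p53 cofactor gene Trp53inp1 and the Akt inhibitor gene Phlda3. Pmaip1 encodes Noxa, a BH3-only protein that neutralises survival members of the Bcl-2 family. Its signal was 126 on CY and 104 on NAC + CY, and signals of 11.9 on acrolein and 10.9 on NS were not well above background. Pmaip1 was thus at least 7.65-fold higher after CY and at least 6.33-fold higher after NAC + CY with the scanner's background subtraction. With normexp correction its log2 ratios were 1.42 and 1.25, smaller than these bounds, and both were still called.

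Bbc3 encodes Puma, another BH3-only protein. Its signals were 822 on CY, 724 on NAC + CY, 309 on acrolein and 314 on NS (chr7:16903403-16903462, + strand, mm9). The log2 ratios to NS were 1.39 ± 0.20 after CY, 1.20 ± 0.20 after NAC + CY and -0.03 ± 0.21 after acrolein.

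Bax encodes the pore-forming protein of the outer mitochondrial membrane, and it was read by a pair of probes at different places of the transcript. The first (chr7:52717122-52717181, - strand, mm9) had signals of 3046 on CY, 2896 on NAC + CY, 1326 on acrolein and 1352 on NS. The second is printed because it spans an exon junction, 60 letters placed over 156 bases of mm9.
Bax junction probe, chr7:52721469-52721624 (-): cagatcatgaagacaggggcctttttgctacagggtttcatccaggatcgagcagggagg
Its signals were 986 on CY, 962 on NAC + CY, 478 on acrolein and 438 on NS. The probes gave like ratios, 1.17 for each after CY, and 1.1 for the first and 1.14 for the junction probe after NAC + CY. Both were called in both comparisons.

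Trp53inp1, whose product assists p53 in cell death and autophagy, had signals of 2392 on CY, 2482 on NAC + CY, 397 on acrolein and 362 on NS (chr4:11101174-11101233, + strand, mm9). Its log2 ratio was 2.72 ± 0.20 after CY and 2.78 ± 0.20 after NAC + CY. A second probe was well above background on the CY, NAC + CY and acrolein arrays and not on NS, and was at least 5.23-fold higher after CY and at least 6.25-fold higher after NAC + CY. After acrolein this second probe was at least 1.46-fold higher without a call, and the first probe had a log2 ratio of 0.13.

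Phlda3 encodes a pleckstrin homology protein that competes with the survival kinase Akt at the membrane. It had signals of 9223 on CY, 7689 on NAC + CY, 2081 on acrolein and 2477 on NS (chr1:137665642-137665701, + strand, mm9). The log2 ratios were 1.90 ± 0.20 after CY, 1.63 ± 0.20 after NAC + CY and -0.25 ± 0.20 after acrolein, where neither the Z-score of -1.96 nor the ratio of 0.84 met the threshold.

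Eda2r, a receptor of the tumour necrosis factor family on the X chromosome, had signals of 141 on CY, 142 on NAC + CY, 40.8 on acrolein and 35.2 on NS. Its log2 ratio was 2.00 ± 0.25 after CY and 2.01 ± 0.25 after NAC + CY, or 1.08 after each with normexp correction. A second Eda2r probe was not well above background on acrolein or NS, and was at least 2.67-fold higher after CY and at least 2.25-fold higher after NAC + CY.

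Fas, the receptor for Fas ligand, had the lowest log2 ratio of the members called after CY. Its signals were 1344 on CY, 1089 on NAC + CY, 802 on acrolein and 708 on NS (chr19:34402164-34402223, + strand, mm9). Fas was called at 0.93 ± 0.20 after CY, with a Z-score of 2.24, and was at 0.62 ± 0.20 after NAC + CY without a call. A second probe on chromosome 19 was at 0.77 after CY and 0.93 after NAC + CY and was called in neither. Another probe that carries the name Fas is placed by the files on chromosome 4 and gave -0.06 and -0.29.

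**Figure D2:**
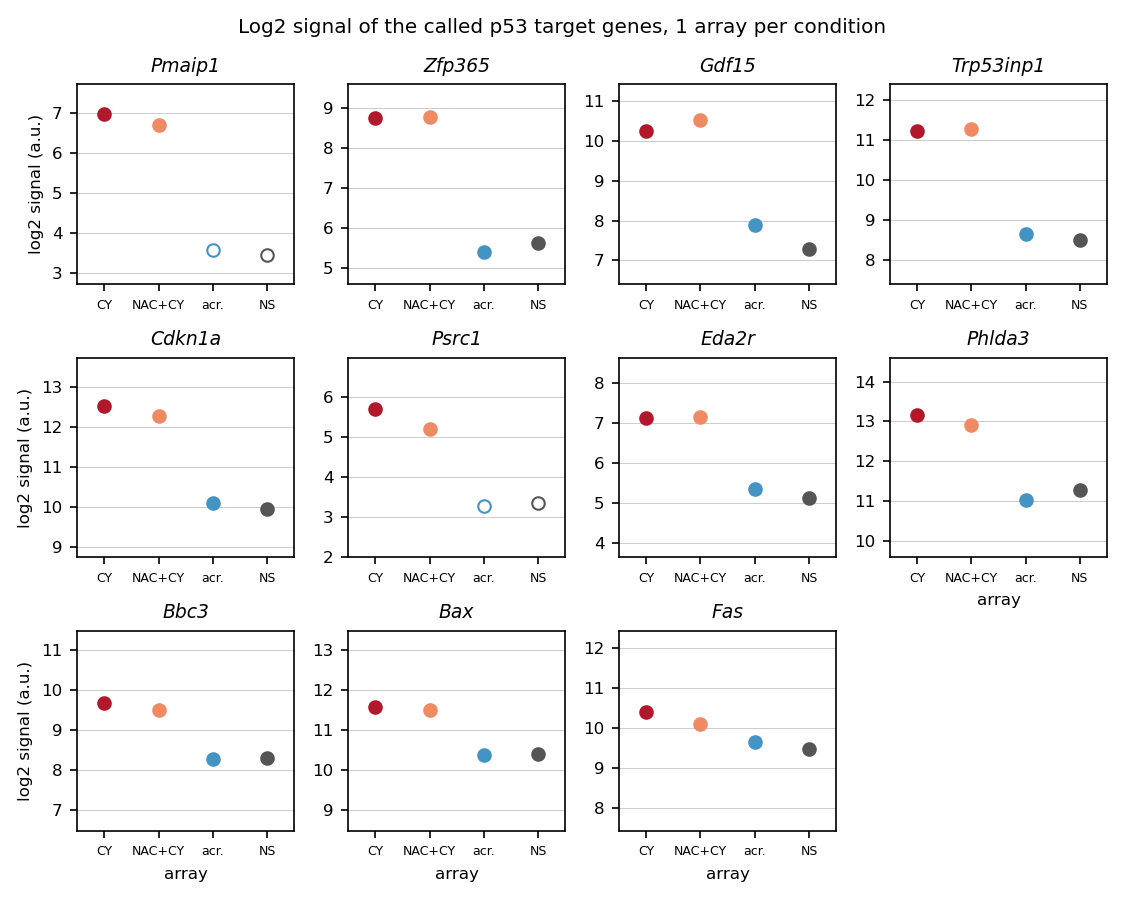
Log2 signal (y axis, arbitrary units, each panel spanning the same range) of the 11 called genes on the CY, NAC + CY, acrolein and NS arrays (x axis), with open circles for signals not well above background. In each panel the CY and NAC + CY arrays are the high ones, and the distance is smallest for Fas.

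The other 7 cell death genes were not called in any comparison. Tnfrsf10b, the mouse death receptor for the ligand TRAIL, came closest, with signals of 176 on CY, 213 on NAC + CY, 94.1 on acrolein and 98.1 on NS. Its log2 ratio was 0.85 ± 0.21 after CY with a Z-score of 1.54, and 1.12 ± 0.21 after NAC + CY with a Z-score of 1.93. The RNA-binding protein gene Zmat3 was at 0.53 after CY and 0.57 after NAC + CY, and Ei24 at 0.35 and 0.41. The apoptosome gene Apaf1 (0.10 and 0.20), the ribosomal protein paralogue Rps27l (0.11 and 0.19), the nuclease gene Aen (-0.02 and 0.18) and the junctional membrane protein gene Perp (-0.23 and -0.08) lay near 0. Aen was read by 5 probes, which ran from -0.02 to 0.50 after CY.

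Among the 6 DNA repair genes, Zfp365 was called higher after CY and after NAC + CY, and the other 5 were not called. Of all genes, 3.38% were higher after CY and 2.68% after NAC + CY. The lack of a call for those 5 lies near these shares and does not set them apart. Zfp365, a zinc finger gene whose human counterpart has been tied to genome stability, had signals of 432 on CY, 439.9 on NAC + CY, 42.0 on acrolein and 49.0 on NS. Its log2 ratio was 3.14 ± 0.23 after CY (8.81-fold) and 3.17 ± 0.23 after NAC + CY (8.98-fold), against -0.22 ± 0.24 after acrolein. With normexp correction the CY and NAC + CY values were 2.24 and 2.27. The translesion polymerase gene Polk was at 0.62 after CY and 0.79 after NAC + CY. The nucleotide excision repair genes Ercc5 (0.47 and 0.47), Xpc (0.17 and 0.27) and Ddb2 (0.22 and 0.05), and the ribonucleotide reductase subunit gene Rrm2b (0.29 and 0.11), had smaller values. A second Xpc probe gave -0.30 after CY and 0.02 after NAC + CY, so that the sign of Xpc after CY depends on the probe.

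Gdf15, a secreted stress cytokine of the TGF-beta superfamily, was the only member called after all 3 treatments. Its signals were 1212 on CY, 1473 on NAC + CY, 235 on acrolein and 156 on NS (chr8:73153293-73153352, - strand, mm9). The log2 ratios were 2.95 ± 0.21 after CY (7.75-fold), 3.24 ± 0.21 after NAC + CY (9.42-fold) and 0.59 ± 0.21 after acrolein (1.5-fold). The acrolein ratio stood at the threshold itself.

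The sestrin genes Sesn1 and Sesn2, whose products restrain the growth kinase complex mTORC1, were not called. Sesn2 was at 0.52 after CY and 0.56 after NAC + CY, and Sesn1 at 0.17 and 0.24.

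The mRNAs of p53 itself and of its regulators were not called in any comparison. Trp53, the mouse p53 gene, had signals of 96.6 on CY, 96.6 on NAC + CY, 129 on acrolein and 115 on NS, and a log2 ratio of -0.25 ± 0.22 after CY. The arrays read mRNA and say nothing of the amount or the modification of the p53 protein. Mdm2 had signals of 7680.0 on CY, 7771 on NAC + CY, 5217 on acrolein and 4660.4 on NS. Its log2 ratio of 0.72 ± 0.20 after CY (1.65-fold) had a Z-score of 1.5, and that of 0.74 ± 0.20 after NAC + CY had a Z-score of 1.94. A second Mdm2 probe gave 0.67 and 0.79, so that both probes passed 1.5-fold and neither was called. Mdm4, which holds p53 inactive without degrading it, was at -0.17 after CY and -0.12 after NAC + CY on its brightest probe. Its 5 tested probes ran from -0.17 to 0.26 after CY with a median of 0.06, and from -0.16 to 0.37 after NAC + CY with a median of 0.07, so that its sign depends on the probe.

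**Figure D3:**
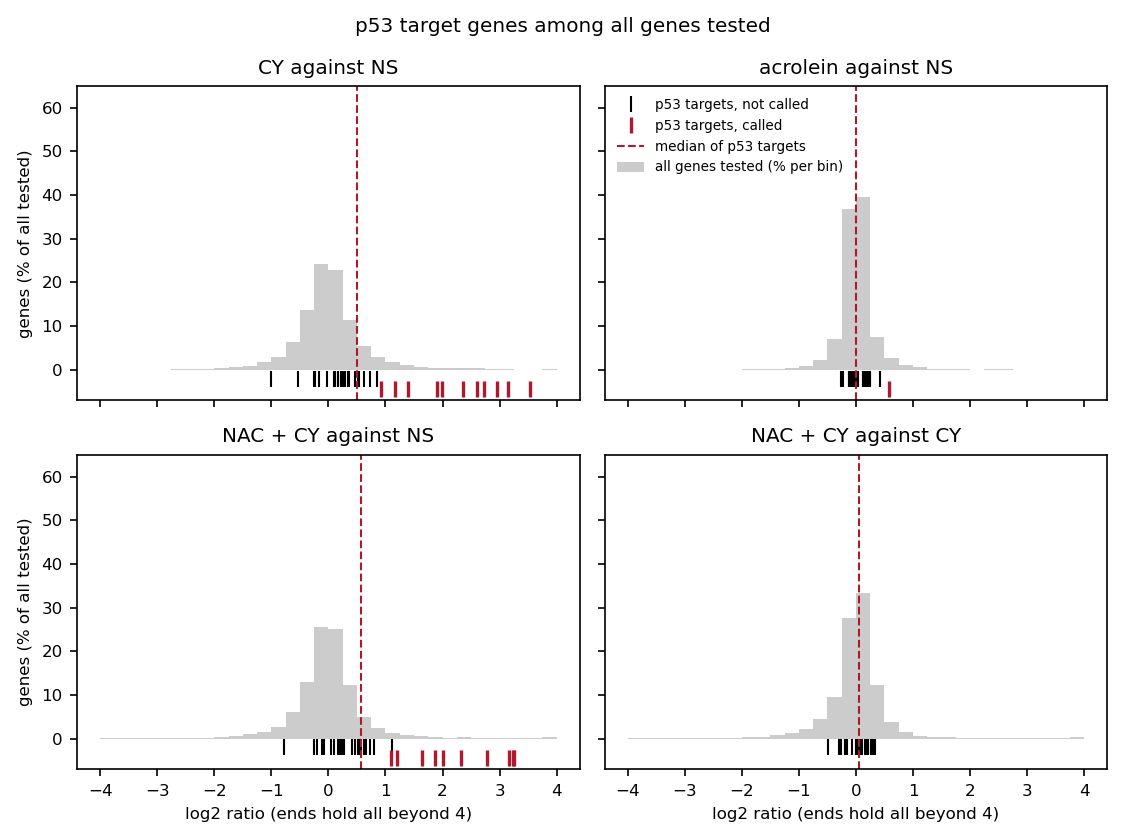
Distribution of log2 ratios of all genes tested (grey, percent of genes per bin of 0.25) in the 4 comparisons, with a tick for each of the p53 target genes (red when called) and a dashed line at their median. The medians of the targets against NS are 0.49 after CY, 0.56 after NAC + CY and 0.00 after acrolein, and the median of NAC + CY against CY is 0.05.

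The last comparison asked whether NAC before CY went with other levels of these genes. Between NAC + CY and CY, 0 of 32 members were called higher and 0 lower, against 1.54% and 2.82% of all 20083 genes tested. By the ratio alone the counts were also 0 and 0, with 5.82% and 7.86% of all genes past those bounds. The log2 ratios of NAC + CY over CY ran from -0.49 for Psrc1 to 0.33 for Ccng1, with a median of 0.05 and quartiles of -0.10 and 0.16. For the genes with the highest signals among those called the values were -0.27 ± 0.20 for Cdkn1a, -0.26 ± 0.20 for Phlda3, -0.07 ± 0.20 for Bax and 0.05 ± 0.20 for Trp53inp1. Probes of 1 gene lay on both sides of 0 for 6 members in this comparison, between -0.32 and 0.31, and for 9 members in that of acrolein against NS, between -0.48 and 0.41, and none of those probes was called. With 1 array each, a difference of that size between the treatments could not be told from variation between animals.

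Markers of other cell types did differ between the same CY and NAC + CY arrays. Of all genes, 1.54% were higher and 2.82% lower on NAC + CY than on CY. A count of 0 or 1 in so short a list does not stand apart from these shares. On NAC + CY, all 6 platelet markers, 6 of 7 mesothelial and 4 of 5 atrial markers were lower than on CY, and all 5 fat and all 5 liver markers were higher. Neutrophil markers were higher in 3 of 5, and macrophage markers were lower in 2 of 6, lymphocyte in 1 of 3 and fibroblast in 1 of 4. Of 7 cardiomyocyte and 5 endothelial markers 0 were called. The summed platelet signal was 2059.6 on NAC + CY, 7608 on CY, 2790.02 on acrolein and 2866 on NS. The summed liver signal was 8398 on NAC + CY, 182 on CY, 45.0 on acrolein and 75.8 on NS. The liver marker Alb, the serum albumin gene, was well above background on NAC + CY and not on CY, acrolein or NS. On the CY array 1 of the 2 liver markers tested against NS was higher, Ttr at 2.98. The part of these tissues in the ratios of the p53 targets was not tested.

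Some markers differed from NS on both CY-treated arrays. Of all genes, 3.38% were higher and 2.81% lower after CY, and 2.68% and 2.59% after NAC + CY. For acrolein these shares were 1.08% and 1.29%. Here too, a count of 0 or 1 in so short a list does not stand apart from them. The atrial markers, among them Myl4, Myl7 and the natriuretic peptide gene Nppa, were higher in 5 of 5 after CY and in 4 of 5 after NAC + CY, with a summed signal of 7.97e+05 on CY, 4.88e+05 on NAC + CY, 3.8e+05 on acrolein and 3.05e+05 on NS. Lymphocyte markers were lower in 2 of 4 tested after CY and in 2 of 3 after NAC + CY. Of 6 macrophage markers 1 was higher and 1 lower after CY, and 2 of 5 tested were lower after NAC + CY. Of 4 fibroblast markers 0 were called after CY and 1 was lower after NAC + CY. Neutrophil markers were higher in 2 of 4 after CY, 3 of 5 after NAC + CY and 3 of 4 after acrolein. Against NS, platelet markers were higher in 6 of 6 and mesothelial markers in 6 of 7 after CY, and in 0 of 5 and 0 of 7 after NAC + CY. After acrolein 6 of 7 mesothelial markers were lower. Fat markers were higher in 2 of 5 after CY and in 5 of 5 after NAC + CY, and lower in 5 of 5 after acrolein. The cardiomyocyte markers Actc1 and Ryr2 were lower on both. Of 5 endothelial markers 1 was lower after CY, the receptor gene Kdr at -1.92, and the others ran up to 0.59. On NAC + CY 1 of the 5 was lower than on NS as well, and their values ran from -1.50 to 0.23. The part of such shifts in the ratios of the p53 targets was not tested. In bulk tissue, fewer cells of a type and less RNA per cell cannot be told apart.

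**Figure D4:**
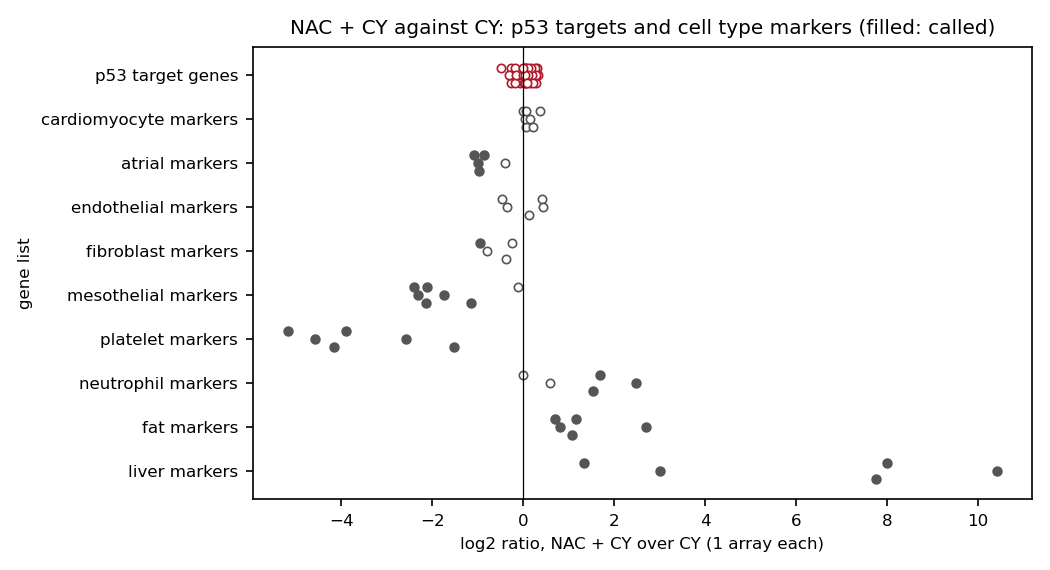
Log2 ratio of NAC + CY over CY (x axis, 1 array each) for the p53 target genes and for markers of cell types (y axis), with filled points for called genes. The p53 targets lie between -0.49 and 0.33 with none called, whereas platelet markers reach -5.17 and liver markers 10.41.

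A further 40 genes reported as p53 targets in various tissues were examined as a second list. After CY, 8 of 39 tested were higher and 1 was lower, against 3.38% and 2.81% of all genes. After NAC + CY 6 were higher and 2 lower, against 2.68% and 2.59% of all genes. Their median log2 ratio was 0.01 after CY and 0.12 after NAC + CY, against -0.02 and -0.01 for all genes. After acrolein 0 of 37 were called, which lies near the shares of 1.08% higher and 1.29% lower over all genes.

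The largest ratios in that list belonged to Gtse1 and Ckap2, which encode microtubule-associated proteins of dividing cells. Gtse1 had 72.2 on CY, 83.5 on NAC + CY, and 3.61 on acrolein and 3.48 on NS, neither of these well above background. Gtse1 was at least 4.38-fold higher after CY and at least 5.07-fold higher after NAC + CY. Ckap2, with 138 on CY and 166 on NAC + CY, was at least 8.35-fold higher after CY and at least 10.1-fold higher after NAC + CY. These bounds too rest on the scanner's background subtraction, and both genes were not read with normexp correction, which gave smaller ratios for Pmaip1 and Psrc1.

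Ephx1, the microsomal epoxide hydrolase gene, had signals of 17558 on CY, 20481 on NAC + CY, 4274 on acrolein and 4289.9 on NS. Its log2 ratio was 2.03 after CY and 2.26 after NAC + CY, and it too was higher on both CY-treated arrays. Trp53i11 fell to 715 on CY and 715 on NAC + CY, against 2557 on NS, with 1911 on acrolein.

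In that list 3 of 39 genes tested were lower on NAC + CY than on CY and 0 were higher. Of all genes 2.82% were lower and 1.54% higher, and the 3 are named after their values were seen. Igfbp3, which binds insulin-like growth factors, had 1448 on NAC + CY and 3764 on CY, a log2 ratio of -1.38. The matrix protein gene Thbs1, also carried by platelets, was at -1.22 and Cgref1 at -0.89. The 32 members had 0 calls in the comparison of NAC + CY against CY, but counts this small do not set the lists apart. Thbs1 moved there with the platelet markers, and their part in its ratio was not tested.

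None of the tested genes that act before p53 was called, which for so few genes lies near the share over all genes. Of all genes, 3.38% were higher and 2.81% lower after CY, and 2.68% and 2.59% after NAC + CY. Of 17 kinases, adaptors and regulators of p53, 0 of 14 tested were called after CY or after NAC + CY, with Prkdc at -0.69 and Atr at -0.68 after CY as the lowest. These encode kinases that answer to DNA damage. Of 12 cell cycle genes that are lowered through p21 and the DREAM complex in dividing cells, 7 were tested after CY and 0 were called. Their values after CY ran from -0.94 for Ccnb2 to 0.96 for Cdc20, and the others lacked a P flag on both arrays. After NAC + CY 6 were tested and 0 were called. These counts of 0 also lie near the shares over all genes. The medians were -0.47 after CY and -0.63 after NAC + CY, against -0.02 and -0.01 for all genes. Several of these genes were dim, with Ccnb2 at 16.4 on CY and 31.4 on NS, and Plk1 at 16.4 and 24.2. Cenpf and Cdc20, the brightest of them on CY, were higher there, at 712 and 190, than on NS, at 389 and 97.5. The summed signal was 1055 on CY, 917 on NAC + CY, 658 on acrolein and 709 on NS. The medians are thus not read as a fall of the list.

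Some members are also raised by factors other than p53, and lists of their targets were read on the same arrays. The counts below stand beside 3.38% of all genes higher after CY, 2.68% after NAC + CY and 1.08% after acrolein. Of 14 ATF4 targets tested after CY, 1 was higher, Atf3, at 1.81 after CY and 2.11 after NAC + CY, and it was at -0.17 after acrolein. The median log2 ratio of the ATF4 targets was 0.48 after CY and 0.26 after NAC + CY, against -0.02 and -0.01 for all genes and 0.49 and 0.56 for the p53 targets. Of 12 immediate early genes, 2 were higher after CY (Nr4a1 at 1.64 and Myc at 1.77), and 3 were higher after NAC + CY, with medians of 0.16 and 0.45. Of 10 glucocorticoid-induced genes, 5 were higher after CY, with Mt2 at 2.97 and Fkbp5 at 1.81, and 4 after NAC + CY, with medians of 0.69 and 0.38. After acrolein 0 of 13 ATF4 targets, 2 of 12 immediate early genes and 1 of 10 glucocorticoid-induced genes were higher. The part of these regulators in the ratios of the p53 targets was not tested.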

How the data were processed

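Heart RNA was hybridised to 4 single-colour Agilent arrays, 1 per condition. The authors' deposited intensity values are background-subtracted spot signals from Agilent Feature Extraction and are not normalised; the headers name version 10.7.1.1 and the submitters' processing notes 9.5.1.1. The deposited value table holds linear signals with near-identical distributions in its columns (largest relative difference 0.000522) and served as an alternative. The series text mentions 3 independent studies, but 1 array per condition was analysed.

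The 59305 spots that are not controls were put on the log2 scale, quantile-normalised over 4 arrays and averaged per probe (56605 probes). No spot was saturated. Of all probes, 47.1% (NS) to 50.0% (acrolein) were well above background, and precision is limited by how few arrays there are. Probes with a P flag on at least 1 of the arrays compared were tested. A gene was represented by its P-flagged probe of highest mean signal, and genes were matched by the name in the files. Where 1 array of a pair was not well above background, the fold is a lower bound, the bright signal over the higher of the dim signal and the lowest signal well above background on that array. Probe positions are on mm9, and RefSeq promoter windows are on GRCm38.p6.

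Named genes are all 32 members, with signals for those called, further probes where they differ in call or sign (as counts and ranges for acrolein against NS and NAC + CY against CY), and up to 4 genes of every other list that lay farthest from a log2 ratio of 0 in CY or NAC + CY against NS; signals of uncalled members and a few list genes were added after the values were seen. The members and lists were chosen with earlier results of these data known. The calling was tested on simulated data. Alternatives covered normalisation, normexp correction with an offset of 50, the dim filter, the Z-score window and threshold, the ratio, the value table and the probe choice. Python 3.11.15 with numpy 2.4.6, pandas 2.3.3 and matplotlib 3.10.9, and limma 3.58.1 in R 4.3.3, were used.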

Additional observations from a re-analysis of the deposited data

How the results depend on the processing

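Each count was recomputed under 12 alternatives. At a Z-score of 3 the members called after CY numbered 7 in place of 11, and after NAC + CY 6 in place of 10. Of all genes, 1.42% were then higher and 0.766% lower after CY, and 1.23% and 0.798% after NAC + CY. By the ratio alone they numbered 15 after CY (14 higher, 1 lower) and 16 after NAC + CY (15 higher, 1 lower). The shares of all genes were then 11.7% higher and 10.7% lower after CY, and 9.61% and 9.67% after NAC + CY. Gdf15 after acrolein was not called with normexp correction or at a ratio of 2, which left 0 members. The other alternatives gave 9 to 12 members after CY and 8 to 10 after NAC + CY. Beside them 2.10% to 3.42% of all genes were higher and 1.62% to 2.88% lower after CY. After NAC + CY these shares were 1.71% to 2.79% and 1.52% to 2.82%. Between NAC + CY and CY 0 members were called under all 12, with 0.672% to 5.82% of all genes higher and 1.35% to 7.86% lower.

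For single members called in a comparison, 239 of 260 recomputed ratios kept their call and 21 lost it, with 0 changes of sign. Cdkn1a, Gdf15, Zfp365, Trp53inp1 and Phlda3 kept the call against NS after CY and after NAC + CY under all 12 alternatives. Fas after CY kept it under 6 of 12. Psrc1 after NAC + CY kept it under 6 of the 11 alternatives that tested it, with log2 ratios from 0.42 to 1.93. Gadd45a was called lower after CY with 75th-percentile scaling or normexp correction, and Mdm2 was called higher after NAC + CY with normexp correction or a window of 500 probes. Tnfrsf10b was called after NAC + CY with a window of 100 probes, and Bbc3 lost its call there with normexp correction, that window or a Z-score of 3. With normexp correction the log2 ratio after CY was 1.42 for Pmaip1 in place of 3.53, 0.64 for Psrc1 in place of 2.35, 1.08 for Eda2r in place of 2.00 and 2.24 for Zfp365 in place of 3.14. The normexp correction added an offset of 50 to each signal, which by itself makes the ratios of dim probes smaller. How much of these changes the offset accounts for was not tested. The cause of the other changes was not tested either, apart from the fewer genes left by the stricter filters.

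No paired analysis was possible because each condition has 1 array, and leaving out an array leaves no comparison. Probes near background give only bounds, which touches Pmaip1, Psrc1, Gtse1, Ckap2 and the second probes of Trp53inp1 and Eda2r.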
